A study of Bos taurus and Sus scrofa with 10 samples.

Results

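The genes described here are those whose symbols match the name pattern of the proteasome subunit genes, PSM followed by a letter from A to G and a number. The cow (Bos taurus) table held 49 such genes among 20799 gene names, and the pig (Sus scrofa) table held 37 among 20502. All 37 pig symbols were also in the cow table, and over both tables the pattern took in 49 of 28050 names. The other 12 symbols (PSMA1, PSMA2, PSMB5, PSMB8, PSMD4, PSMD8, PSMD9, PSME2, PSME3, PSMG1, PSMG2 and PSMG4) were not analysed in pig. Total RNA was sequenced from 5 stages in each species, namely oocytes, embryos of 2-4 cells, embryos of 8-16 cells, morulae and blastocysts. The labels give no genotype, breed, treatment, age or culture condition for any group, and the number of oocytes or embryos behind a library is not stated. The series title names a study of DNA methylation before implantation, in which the RNA data show what each stage transcribed or stored.

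The proteasome is the large protease of the cytoplasm and nucleus that degrades proteins marked with ubiquitin. Its 20S core is a barrel of stacked rings: outer rings of alpha subunits (PSMA genes) form the gate, and inner rings of beta subunits (PSMB genes) carry the proteolytic sites of PSMB5, PSMB6 and PSMB7. A 19S cap, made of ATPases (PSMC genes) that unfold the substrate and of non-ATPase subunits (most PSMD genes) that bind and strip ubiquitin, feeds the core. PSMG proteins and PSMD5, PSMD9 and PSMD10 are chaperones of assembly, PSME proteins are alternative activators of the core, and PSMF1 is an inhibitor. Oocytes and early embryos use ubiquitin-dependent degradation to leave meiosis and to clear maternal proteins.

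Each group had 1 library, so no difference below has a replicate check, no test was possible and no p-value is given. Read totals ran from 3002751 in the pig morula to 14182046 in the cow blastocyst library. Levels are reads per 1000000 reads of the library (RPM). They are not divided by gene length, so they set a gene against itself at other stages and not against other genes. Differences between stages are differences of log2(RPM + 1), which understate the change of low genes. A gene was compared where at least 1 of both libraries reached 1 RPM, and it is said to rise or fall only at a difference of 2 or more, 4-fold on that scale. Ratios of RPM and RPM levels carry 95% intervals that cover counting error only, since the libraries were amplified and reads are not independent molecules. Where a library had 0 reads, the fold is a lower bound against a floor of 3 reads, which lies between 0.212 and 0.999 RPM. Oocyte markers (8 genes of each table, ZP4 and ZAR1 among them) summed to 6046 RPM in the cow oocyte and 0.282 RPM in the cow blastocyst, and to 7631 and 22.3 RPM in pig. Trophectoderm markers (KRT8 and others) went the other way: the cow sums were 26.4 and 2774 RPM at these stages, and the pig sums 19.8 and 6991 RPM. Markers of the cumulus and granulosa cells that surround an oocyte summed to 185 RPM over 8 genes in the cow oocyte, with AMH and FST at 0 reads and HAS2 and FSHR at 141 and 37.3 RPM, and to 75.9 RPM in the cow blastocyst, of which CYP19A1 gave 48.8 and FSHR 23.8 RPM. The pig sums over 6 genes were 17.5 and 33.8 RPM. The part of such cells in the values below was not tested. The share of all reads of a library that came from mitochondrial genes ran from 2.74% to 30.2% in cow, highest in the blastocyst. In pig it ran from 6.06% to 18.6%.

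Proteasome transcripts were present from the oocyte on. In cow, 40 of the 49 genes reached 1 RPM at all 5 stages, and in pig 32 of 37 did. The members together made up 2067, 2244, 2241, 2660.2 and 2537 RPM in cow, in the order of the stages. In pig the sums were 1635, 1154, 1373, 3491 and 3185 RPM. Cow libraries thus stayed within a narrow band, whereas in pig the morula and the blastocyst stood apart from the 3 earlier stages. As a share of the gene reads that are not mitochondrial, the cow values were 0.304%, 0.312%, 0.363%, 0.426% and 0.494%, higher at each later stage. The pig shares on that scale were 0.204%, 0.162%, 0.195%, 0.482% and 0.43%, lowest at the 2-4 cell stage. The libraries are bulk RNA, so fewer cells of a type and less RNA per cell cannot be told apart.

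**Figure D1:**
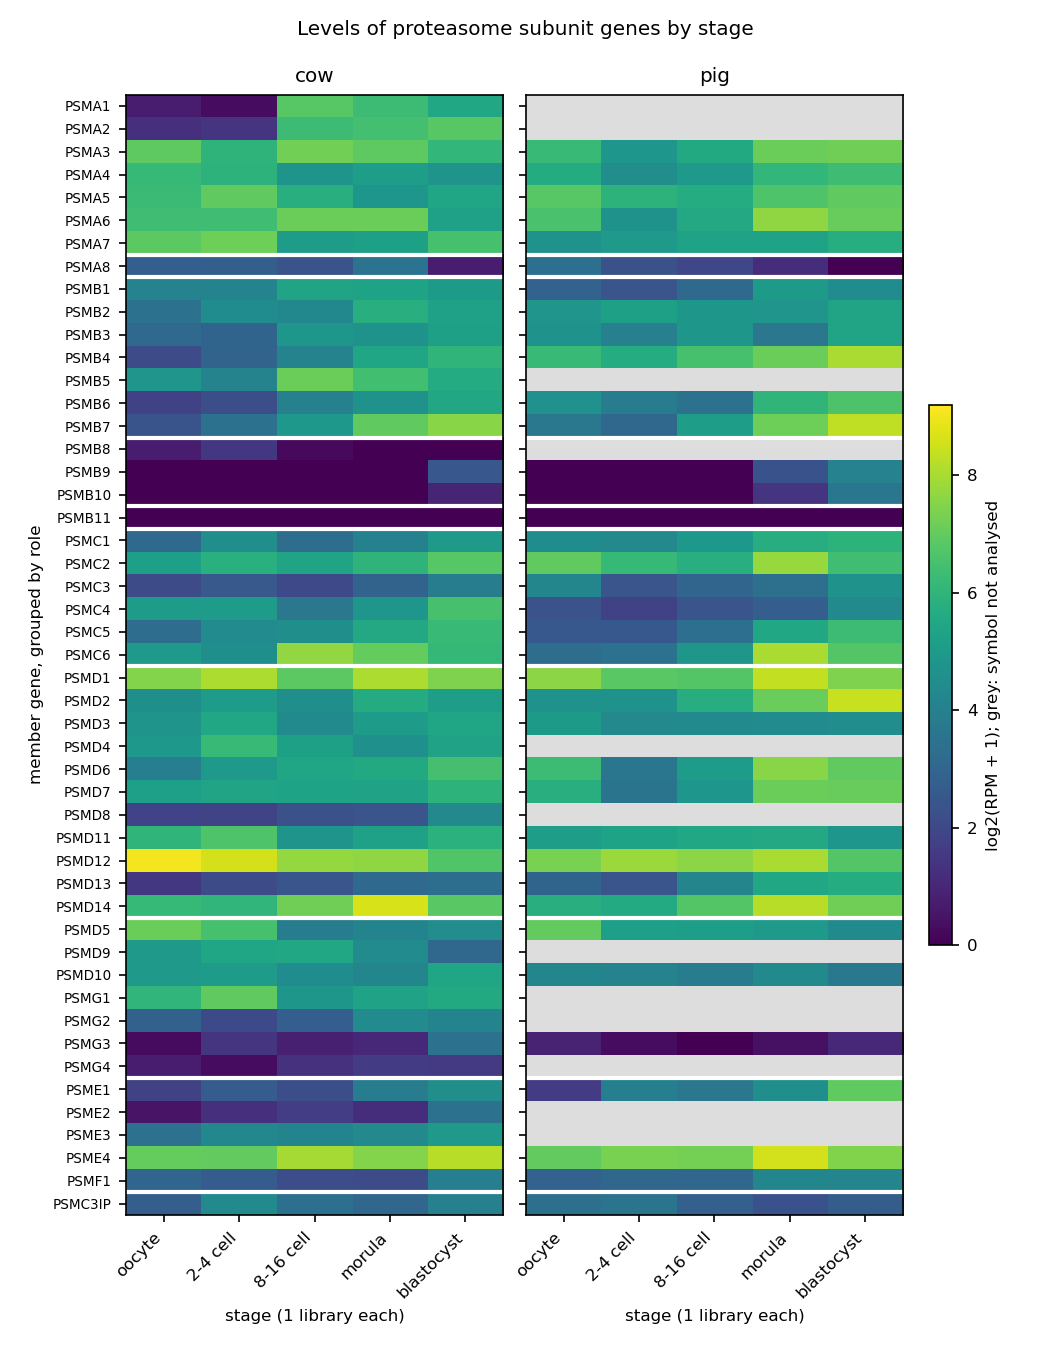
Level of every proteasome gene (rows, grouped by role) in the 5 libraries of cow and of pig (columns), as log2(RPM + 1) on the colour scale; grey marks genes not analysed in pig. Most rows are coloured at every stage, while PSMB9 and PSMB10 are at 0 before the blastocyst in cow and before the morula in pig.

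From the oocyte to the blastocyst, the endpoint comparison, 13 of the 46 cow genes compared rose and 3 fell; over all 12695 cow genes compared, 22.5% rose and 18.8% fell. The members' share of rising genes was thus a little above that background and the share of falling genes below it. The 13 were PSMA1, PSMA2, PSMB3, PSMB4, PSMB6, PSMB7, PSMB9, PSMC5, PSMD6, PSMD8, PSME1, PSME2 and PSMG3, and the 3 were PSMA8, PSMD5 and PSMD12. In pig 8 of 36 rose and 2 fell, against 27.2% and 20% of all 12501 genes compared, so the count of rising members was not above the background. The 8 were PSMB7, PSMB9, PSMB10, PSMC5, PSMC6, PSMD2, PSMD13 and PSME1, and the 2 were PSMA8 and PSMD5. Of the pig members compared, 18 overlap no other gene of the table, and among these 1 rose (PSMB7) and 2 fell. Among all symbols 18 of 37 in pig and 4 of 49 in cow overlap another gene, and not every overlap is named below. With mitochondrial reads left out of the total, 18 of 47 cow members rose and 1 fell, where 27% and 15.4% of all genes did. The median member difference was 1.19 in cow, where that of all genes was 0.17, and 0.83 in pig, where that of all genes was 0.43. The counting interval of the ratio, or its bound where a library had 0 reads, lay above 1 for 34 cow and 25 pig members. It lay below 1 for 10 and 7. Bounds were used for cow PSMB9 and for PSMB9, PSMB10 and PSMA8 in pig. Values above 0 were found for 34 of 46 cow members (52.3% of all genes) and 27 of 36 pig members (55.1% of all genes). Of the members that reached 1 RPM, 22 of 47 in cow and 19 of 36 in pig were highest in the blastocyst, 46.8% and 52.8%, where all genes gave 27.5% and 32.6%.

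Step by step, the counts of members past the threshold are given beside those of all genes, whose own shares differed between the species. In cow no member passed the threshold from the oocyte to the 2-4 cell embryo (background 0.188% higher and 0.196% lower). From there to the 8-16 cell embryo 4 of 46 rose and 3 fell, below the 13% and 14.9% of all genes. With median scaling 6 rose and 1 fell, where 17.8% and 7.27% of all genes did. To the morula 1 of 45 rose and none fell (background 6.92% and 5.65%), and to the blastocyst 3 of 46 rose and 1 fell (background 12.5% and 11.7%). In pig 1 of 33 rose and 2 fell from the oocyte to the 2-4 cell embryo (background 3.89% and 2.29%). After quantile normalisation 1 of 34 rose and 1 fell there (background 4.42% and 2.35%). At the next step none of 33 passed the threshold (background 4.82% higher and 0.725% lower). From the pig 8-16 cell embryo to the morula 9 of 35 rose and none fell, where 12.5% of all genes rose and 12.1% fell. At this step 29 of 35 members had a value above 0 (53.7% of all genes), and the median member difference was 1.17 against 0.18 for all genes. Those 9 were PSMA6, PSMB6, PSMB7, PSMB9, PSMC2, PSMC5, PSMC6, PSMD6 and PSMD7. The count was 6 after scaling by the median or quantiles, where 11.3% and 12.3% of all genes rose. From the pig morula to the blastocyst 2 of 36 rose and none fell (background 14.4% and 14.6%). Neighbouring steps share a library.

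**Figure D2:**
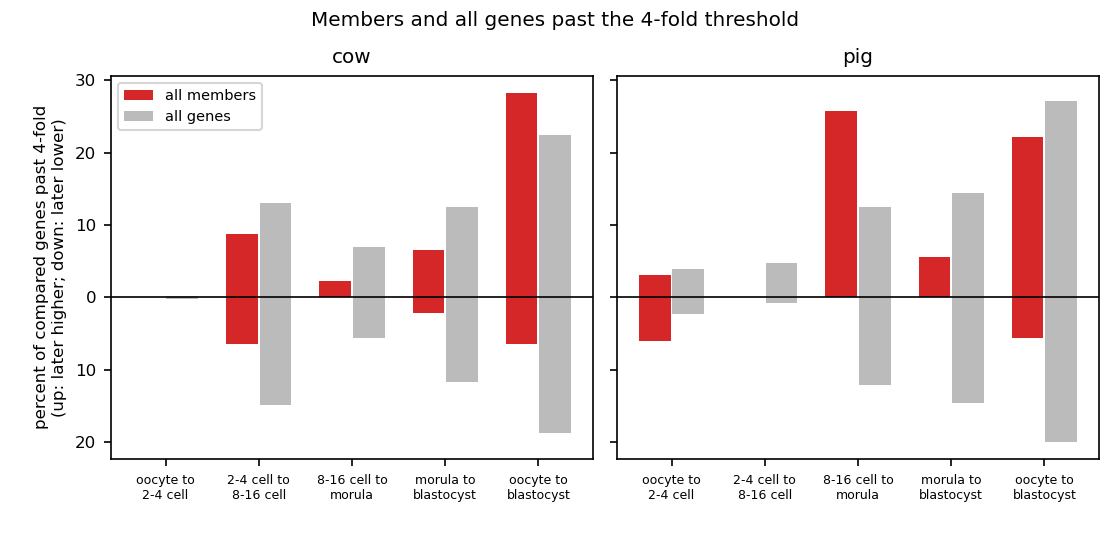
Percent of the compared genes that rose (above 0) or fell (below 0) past the threshold of 2 at each comparison, for proteasome genes and for all genes of the table, in cow and pig. The member bar for rising genes is longer than that of all genes from 8-16 cell to morula in pig (9 of 35) and from oocyte to blastocyst in cow (13 of 46).

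The role groups did not move alike between the ends of the series, described here without a test. In cow the beta ring (PSMB1 to PSMB7) was higher in the blastocyst than in the oocyte in 7 of 7 genes, with a median difference of 2.08, and 4 of them rose. All 6 ATPases had values above 0 as well (median 1.71, 1 rose), while only 2 of 7 alpha ring genes did (median -0.81, 2 rose). Of the cow non-ATPases, 8 of 11 lay above 0 (median 0.65), of the assembly chaperones 4 of 7 (median 0.45), and of the activators with the inhibitor 5 of 5 (median 1.52). The sign of the chaperone median was not kept with a minimum of 5 RPM. The count for cow non-ATPases was 10 of 11 with the mitochondrial reads left out of the total, since PSMD1 and PSMD11 lie near 0. In pig the beta ring was above 0 in 6 of 6 (median 1.69), the alpha ring in 5 of 5 (median 0.69) and the ATPases in 5 of 6 (median 1.74). Pig non-ATPases were above 0 in 5 of 9 (median 0.66), assembly chaperones in 1 of 3 (median -0.55) and activators with the inhibitor in 3 of 3 (median 1.29).

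Summed over its genes, the cow beta ring stood at 71, 81.3, 286, 391 and 451 RPM from the oocyte to the blastocyst, and the step between the 2-4 cell and 8-16 cell libraries was the largest. The pig beta ring stood at 168, 128, 199, 416 and 778 RPM, highest in the blastocyst. Cow alpha ring sums had no such slope, at 469, 475, 589, 522 and 419 RPM. The assembly chaperones summed to 272, 294, 115, 117 and 146 RPM in cow, lower from the 8-16 cell embryo on, and to 144, 52.7, 48.3, 49.95 and 33.2 RPM in pig, lower from the 2-4 cell embryo on. PSMD5 alone gave 139 RPM of the cow oocyte sum and 125 RPM of the pig oocyte sum, while 4 of 7 cow chaperones were higher in the blastocyst. The pig ATPases peaked in the morula, at 181, 112, 131, 590.5 and 371 RPM.

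**Figure D3:**
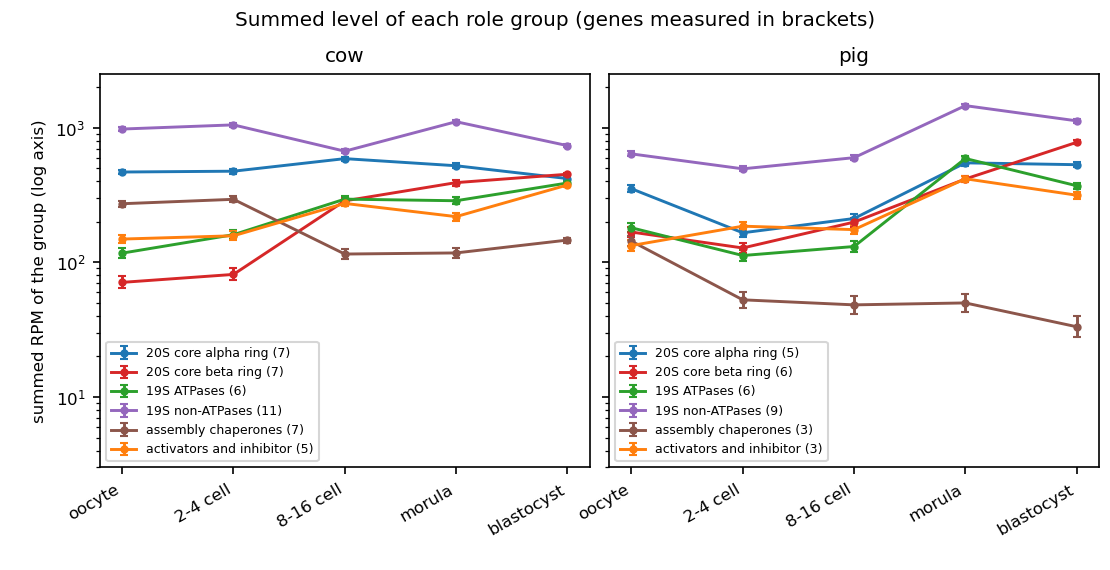
Summed RPM of the genes of each role (lines, log scale) at the 5 stages in cow and in pig, with bars for the 95% counting interval. In cow the beta ring line climbs from 71.0 to 451 RPM while the alpha ring line stays between 419 and 589 RPM; in pig most lines have their step between the 8-16 cell embryo and the morula.

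Within the alpha ring, which gates the core, PSMA1 and PSMA2 had a pattern of their own in cow. PSMA1 (chromosome 15, 38745761 to 38758646) was at 0.609, 0.225, 112, 77.7 and 44.7 RPM from the oocyte to the blastocyst, with 3 reads in the oocyte and 1 at the 2-4 cell stage. PSMA2 (chromosome 4, 78821820 to 78832470) was at 1.42, 1.58, 77.7, 86.4 and 111 RPM. Both were near the floor in the first 2 libraries and high in the other 3. At the step to the 8-16 cell embryo PSMA1 rose by 6.53 on the log2 scale, a ratio of 498 (95% interval 89 to 19686), the largest member difference of any cow step, and PSMA2 rose by 4.93, a ratio of 49.3 (95% interval 23.7 to 123). Against the oocyte, the blastocyst ratio was 73.5 (95% interval 25 to 357) for PSMA1 and 77.9 (95% interval 37.7 to 194) for PSMA2. Both genes overlapped no other gene of the cow table.

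The other 5 alpha ring genes had transcripts in the oocyte and were lower in the cow blastocyst. PSMA7 was at 118, 144, 33, 36.2 and 90.8 RPM. It fell 4.37-fold (95% interval 3.7 to 5.19) at the step to the 8-16 cell embryo, a difference of -2.09, just past the threshold. At this step 1 cow member fell in place of 3 with median scaling, quantile normalisation, mitochondrial reads left out or a pseudocount of 5 RPM. The PSMA7 call may thus not hold there. The blastocyst level of PSMA7 was back near that of the oocyte. PSMA5 was at 76.7, 123, 53, 27.4 and 41.8 RPM. PSMA4 was at 71.2, 61.1, 26, 34.1 and 25.9 RPM. Both were thus lower from the 8-16 cell embryo on than before it. PSMA6 was at 81.5, 83.1, 138, 141 and 37.6 RPM. PSMA3 was at 119, 62.4, 149, 119 and 67.6 RPM. These 2 had high values at the 8-16 cell and morula stages and low ones in the blastocyst. In pig these same 5 genes were higher in the blastocyst than in the oocyte. PSMA6 had 92.7, 25.4, 46.1, 203 and 132 RPM there, and rose 4.41-fold (95% interval 3.67 to 5.31) from the 8-16 cell embryo to the morula. Pig PSMA3 had 72.5, 27.5, 46.7, 139 and 145 RPM. Pig PSMA4 had 49.1, 22.2, 29.7, 66.9 and 79.6 RPM. Pig PSMA5 had 112, 60.6, 50.5, 101 and 123 RPM. All 3 were lowest at the 2-4 or 8-16 cell stage, while PSMA7 had no such dip, at 25.8, 29.96, 38.5, 38.3 and 51.7 RPM. Pig PSMA7 overlaps LSM14B on the opposite strand, at 9.77, 24.6, 28.4, 29.3 and 24.7 RPM. The oocyte to blastocyst differences of the 5 were between -1.43 (PSMA4) and -0.37 (PSMA7) in cow, and between 0.13 (PSMA5) and 0.99 (PSMA3) in pig. The cow PSMA7 value crosses 0 without mitochondrial reads in the total, and the pig PSMA5 value does with median scaling.

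PSMA8, the paralog that takes the place of PSMA7 in meiotic cells of the testis, fell in both species. In cow it was at 5.68, 5.86, 4.05, 10.3 and 0.635 RPM, highest in the morula, and fell 16.2-fold (95% interval 7.72 to 37.9) from there to the blastocyst. In pig it was at 9.18, 3.87, 2.84, 1.33 and 0 RPM, lower at each later stage, with 0 reads in the blastocyst and a level at least 11.4-fold lower than in the oocyte. The cow difference between the ends, -2.03, lies just past the threshold. It was -0.92 with a pseudocount of 5 RPM and -2.45 with 0.5 RPM. Without mitochondrial reads in the total, 1 cow member fell between the ends in place of 3. Of the reads of PSMA7 and PSMA8 together, PSMA8 held 26.3% (19.2 to 34.9; 31 of 118 reads) in the pig oocyte and 3.36% (1.31 to 8.32; 4 of 119 reads) in the pig morula. The cow share was 4.61% (3.21 to 6.58; 28 of 608 reads) in the oocyte, 22.1% (16.7 to 28.7; 40 of 181 reads) in the morula and 0.694% (0.365 to 1.31; 9 of 1297 reads) in the blastocyst. Brackets give 95% Wilson intervals. These shares are not corrected for gene length, so they compare stages only.

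The 3 proteolytic beta subunits did not follow one course. PSMB7, the trypsin-like subunit (cow chromosome 11, 95401692 to 95458914; pig chromosome 1, 265172237 to 265235480), was at 4.26, 10.1, 28.9, 122 and 187 RPM in cow and at 11.8, 7.73, 33.8, 144 and 319 RPM in pig. In both species the morula and blastocyst values were above every earlier one. From oocyte to blastocyst PSMB7 rose 43.9-fold (95% interval 28.6 to 71) in cow and 27-fold (95% interval 19.7 to 37.9) in pig, and it rose at the step into the morula in both, by 2.04 and 2.05. That cow difference lies just past the threshold and was under it with median scaling, quantile normalisation or thinned reads. The pig difference lies as near to the threshold. The pig count at this step was 6 in place of 9 with median scaling or quantile normalisation, so the pig call may not hold there either. PSMB6, the caspase-like subunit, was at 2.43, 3.6, 15.1, 25.1 and 45 RPM in cow and rose 18.5-fold (95% interval 10.5 to 36). Pig PSMB6 was at 24.3, 13.5, 10.1, 63.3 and 97.3 RPM, lowest at the 8-16 cell stage, and rose 6.26-fold (95% interval 4.29 to 9.41) into the morula. Its oocyte to blastocyst difference of 1.96 was just under the threshold. PSMB5, the chymotrypsin-like subunit, was at 26.8, 16.2, 139.5, 83.9 and 49.4 RPM in cow, highest at the 8-16 cell stage, to which it rose 8.6-fold (95% interval 6.75 to 11.11). Its blastocyst level was 1.84-fold higher (95% interval 1.53 to 2.24) than the oocyte level, a difference of 0.86 that did not pass the threshold.

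Of the structural beta subunits, PSMB4 was the one with the widest course in cow, at 3.45, 6.53, 16.4, 41.5 and 64.1 RPM, and rose 18.6-fold (95% interval 11.5 to 32) between the ends. PSMB3 was at 7.91, 6.76, 27.6, 25.4 and 36.7 RPM and rose 4.63-fold (95% interval 3.34 to 6.59). PSMB1 and PSMB2 did not pass the threshold in cow, with differences of 0.92 and 1.80. Every later stage of cow PSMB4 was above the one before. In pig PSMB4 was at 73.7, 50.7, 91, 139.5 and 259.5 RPM, a difference of 1.80. Pig PSMB1 was at 6.51, 4.35, 7.9, 31.3 and 21.4 RPM, highest in the morula. Pig PSMB3 was at 24.9, 15, 28.1, 11.7 and 40.8 RPM, lowest in the morula. It overlaps PIP4K2B on the opposite strand, at 34.4 RPM in the 8-16 cell embryo and 7.66 in the morula. The pig PSMB4 gene overlaps POGZ on the opposite strand, which was at 661 RPM in the pig oocyte and 47.7 in the blastocyst. PSMB2 had one of the flattest courses in pig, at 26.6, 36.5, 28.1, 26.6 and 39.9 RPM.

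Interferon-inducible subunits replace the proteolytic ones in the immunoproteasome: PSMB8 for PSMB5, PSMB9 for PSMB6 and PSMB10 for PSMB7. PSMB9 was a late transcript in both species, and PSMB10 was one in pig. Cow PSMB9 (chromosome 23, 7127079 to 7133608) had 0 reads in the first 4 libraries and 4.58 RPM (interval 3.6 to 5.84; 65 reads) in the blastocyst, at least 5.96-fold higher than in the morula. Pig PSMB9 (chromosome 7, 25071712 to 25077233) had 0 reads up to the 8-16 cell embryo, 4.0 RPM in the morula and 15.8 RPM in the blastocyst, which was at least 17.8-fold higher than the oocyte. Pig PSMB10 had the same order, with 1.67 RPM in the morula and 11.3 RPM in the blastocyst, at least 12.7-fold higher than the oocyte. Cow PSMB10 reached 0.917 RPM in the blastocyst, from 13 reads, under the minimum for a comparison. The 0 reads of the cow morula allow up to 0.985 RPM, so a late start of cow PSMB10 was not shown. Cow PSMB8 (chromosome 23, 7113304 to 7116676) went the other way, at 0.609, 1.8, 0.184, 0 and 0 RPM, with 8 reads at its highest and 0 in the morula and blastocyst. PSMB11, the beta subunit of the thymus, had 0 reads in all 10 libraries.

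Among the reads of PSMB6 and PSMB9 together, PSMB9 took 9.25% (7.32 to 11.6; 65 of 703 reads) in the cow blastocyst and 14% (11 to 17.6; 59 of 422 reads) in the pig blastocyst. In the morula the cow share was 0 of 98 reads, which allows up to 3.77%, and the pig share was 5.94% (3.43 to 10.1, 12 of 202 reads). For PSMB10 among PSMB7 and PSMB10 the blastocyst shares were 0.488% (0.285 to 0.833; 13 of 2664 reads) in cow and 3.41% (2.53 to 4.57; 42 of 1233 reads) in pig. For PSMB8 among PSMB5 and PSMB8 the cow share was 10% (5.15 to 18.5, 8 of 80 reads) at the 2-4 cell stage. In the cow blastocyst it was 0 of 700 reads, which allows up to 0.546%. As before, these shares compare stages and not the genes of a pair. Pig PSMB9 overlaps an unnamed gene on the opposite strand that was at 2.0 and 11 RPM in the morula and blastocyst, and pig PSMB10 overlaps PSKH1, at 17.2 RPM in the oocyte and 41.6 in the blastocyst. How the reads were assigned by strand is not given in the sources used here. Neither cow gene overlapped another gene.

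**Figure D4:**
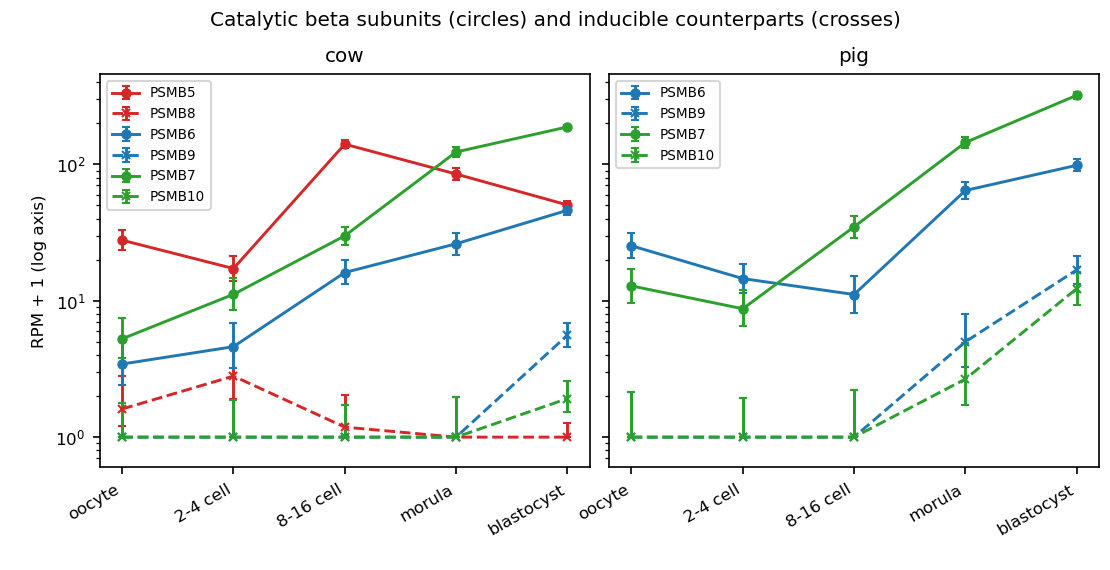
Level of the standard proteolytic subunits (PSMB5, PSMB6, PSMB7) and of their inducible counterparts (PSMB8, PSMB9, PSMB10) at the 5 stages in cow and in pig, as RPM + 1 on a log axis (so that 0 RPM lies at 1), with bars for the 95% counting interval. PSMB9 is first above 0 RPM in the blastocyst in cow and in the morula in pig.

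Markers of immune cells, in which the inducible subunits are known to be expressed, were looked at beside these genes. Immune cell markers summed to 85.8, 105, 37.6, 57.7 and 12.3 RPM over 7 genes in cow and to 9.47, 6.28, 14.5, 26.3 and 661 RPM over 6 genes in pig. CD74, the invariant chain of MHC class II, made up 649.6 RPM of the pig blastocyst sum. CD14, CD3E and LYZ had 0 reads in that library, and PTPRC, the marker of all leukocytes, was at 11 RPM. In the cow blastocyst CD14, CD3E and CSF1R had 0 reads, and CD74 was at 0.353 and PTPRC at 1.55 RPM. Cow CD68 and LYZ, markers of macrophages, were at 6.06 and 4.37 RPM there, against 0.406 and 0 RPM in the oocyte. Of the 5 cow markers compared between these ends 2 rose and 2 fell, and of the 3 in pig 1 rose and none fell. The part of other cells in the PSMB9 and PSMB10 values was not tested.

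The 19S ATPases unfold substrates and thread them into the core. PSMC5 rose in both species, 8.46-fold (95% interval 6.24 to 11.8) in cow, where it was at 8.72, 20.7, 23.2, 45.4 and 73.8 RPM, and 16.4-fold (95% interval 9.9 to 29) in pig, where it was at 4.74, 4.83, 9.16, 43.6 and 77.5 RPM. Each later cow library was above the earlier one, and in pig the morula and blastocyst were above the rest. The pig PSMC5 gene overlaps FTSJ3 over its whole length on the opposite strand, and FTSJ3 was at 60.7 RPM in the oocyte and 162 in the blastocyst. PSMC6 was at 29.6, 22.8, 207, 129.5 and 68.6 RPM in cow, a peak at the 8-16 cell stage to which it rose 9.12-fold (95% interval 7.43 to 11.3). In pig PSMC6 was at 8.88, 10.1, 28.4, 258 and 106 RPM, with its peak a stage later, and rose 9.09-fold (95% interval 7.3 to 11.4) into the morula. It was the largest member rise of that pig step. Pig PSMC6 overlaps ERO1A on the opposite strand, at 34.7 RPM in the 8-16 cell embryo and 28 in the morula.

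The remaining ATPases moved less. Cow PSMC1 was at 7.91, 23.2, 8.84, 15.6 and 30.6 RPM and had one of the 3 largest differences of the first cow step, 1.44, under the threshold. PSMC2 was at 35.3, 56.8, 40.5, 62.1 and 110.2 RPM in cow, highest in the blastocyst. In pig PSMC2 was at 124, 71.5, 53.1, 221 and 81.5 RPM, rose 4.16-fold (95% interval 3.51 to 4.96) into the morula and was lower again in the blastocyst. PSMC4 had a pig difference of 2.00 between the ends as rounded, which is just under the threshold, and a cow difference of 1.47. Cow PSMC4 overlaps FBL over its whole length on the opposite strand. FBL was at 49.9 RPM in the cow oocyte and 138 in the blastocyst. Pig PSMC1 was at 21, 19.1, 29.1, 52.3 and 60.1 RPM, a difference of 1.47. It overlaps NRDE2 on the opposite strand, at 6.51 RPM in the oocyte and 53.6 in the blastocyst. PSMC3 differed by 1.80 in cow and 0.51 in pig.

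Among the 19S non-ATPases, which form the base and lid of the cap, single genes went in opposite directions. PSMD12, a lid subunit, was at 530.4, 387, 212, 205 and 102 RPM in cow and fell 5.2-fold (95% interval 4.87 to 5.55). Each later stage was below the one before. Without mitochondrial reads in the total, 1 cow member fell between the ends in place of 3, so this call may not hold there. In pig PSMD12 was at 162, 223, 193, 263 and 105 RPM, a difference of -0.62. PSMD14, the deubiquitinase of the lid, was at 71.4, 65.3, 145, 395 and 113 RPM in cow and 53, 48.1, 105, 294 and 145 RPM in pig, highest in the morula in both. PSMD2, a scaffold of the base, had one of the smallest ranges in cow, at 22.9, 32.2, 23.2, 49 and 33.6 RPM, but rose 13.5-fold (95% interval 10.8 to 16.9) in pig, at 25.8, 25.1, 51.8, 137 and 347 RPM. Pig PSMD2 overlaps CLCN2 on the opposite strand, which stayed between 0.536 and 3.0 RPM. PSMD13 was at 6.81, 4.35, 17.4, 44 and 51.2 RPM in pig and rose 7.52-fold (95% interval 4.87 to 12.2), with its partner on the opposite strand (COX8H) at 0 in all 5 libraries. In cow PSMD13 was at 1.83, 3.38, 4.42, 7.95 and 9.03 RPM, a difference of 1.83. Cow PSMD13 overlaps COX8B on the opposite strand, at 0.609 RPM (3 reads) in the oocyte and 38.9 RPM in the blastocyst.

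PSMD6 and PSMD7, further lid subunits, had a dip at the pig 2-4 cell stage. Pig PSMD6 was at 77.3, 11.11, 32.8, 187 and 123 RPM, 6.95-fold lower (95% interval 5.07 to 9.73) at the 2-4 cell stage than in the oocyte, and it rose 5.69-fold (95% interval 4.61 to 7.08) into the morula. Pig PSMD7 was at 55.4, 10.6, 27.2, 139.5 and 132 RPM, 5.21-fold lower (95% interval 3.73 to 7.41) at the 2-4 cell stage, and rose 5.14-fold (95% interval 4.06 to 6.56) into the morula. These were the 2 pig members that fell at the first step, and 23 of the 33 compared there had values below 0, as did 6439 of the 11356 pig genes compared. In cow PSMD6 was at 14.2, 29.96, 41.4, 47.4 and 88.7 RPM, higher at each stage, and rose 6.25-fold (95% interval 4.91 to 8.07) from end to end. Cow PSMD7 had the smallest range of the cow members that reached 1 RPM, at 35.5, 40.1, 39.2, 38.5 and 60.1 RPM. Pig PSMD6 overlaps ATXN7 on the opposite strand, at 92.4, 67.9 and 193 RPM in the oocyte, 2-4 cell embryo and morula.

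PSMD8, another lid subunit, was at 2.64, 2.7, 3.87, 4.36 and 19.2 RPM in cow and rose 7.3-fold (95% interval 4.2 to 13.9), with the blastocyst apart from the other 4 libraries. PSMD4, a ubiquitin receptor, was at 29, 72.5, 36.4, 23.9 and 38.6 RPM, and its 2-4 cell value was 2.5-fold higher (95% interval 2.05 to 3.07) than its oocyte value, one of the 3 largest differences of that step and under the threshold. PSMD3 stayed within a narrow range in both species, at 26.2, 45.3, 20.2, 33.1 and 42.9 RPM in cow and 31.4, 19.3, 19.6, 20.6 and 22 RPM in pig. PSMD11 of the lid was at 63.3, 101, 26, 37.7 and 58.4 RPM in cow and 33.8, 39.4, 44.9, 46.3 and 27.3 RPM in pig and did not pass the threshold at the ends in either. PSMD1, a scaffold of the base, was at 179.7, 269, 117, 265 and 171 RPM in cow and 194, 114, 107, 326 and 172 RPM in pig, with end differences of -0.07 and -0.17.

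The assembly chaperones of the cap and core did not share a direction. PSMD5, which holds the base before the cap is complete, fell in both species. Cow PSMD5 was at 139, 90.8, 14, 16.7 and 22 RPM and fell 6.33-fold (95% interval 5.53 to 7.26) between the ends; at the step to the 8-16 cell embryo alone it fell 6.49-fold (95% interval 5.07 to 8.41). Pig PSMD5 was at 125, 36, 34.7, 29.97 and 20.4 RPM and fell 6.13-fold (95% interval 4.79 to 7.94), with the oocyte above the other 4 libraries. PSMG1, a member of the chaperone pair that starts the alpha ring, was at 65.3, 124, 28, 38.5 and 46.7 RPM in cow and fell 4.42-fold (95% interval 3.69 to 5.33) into the 8-16 cell embryo. This lies just past the threshold. With median scaling, quantile normalisation, mitochondrial reads left out or a pseudocount of 5 RPM, 1 cow member fell there in place of 3. PSMG2, the partner of PSMG1, was at 6.29, 3.15, 5.71, 20.8 and 16.7 RPM, highest in the morula. PSMG3, of the other chaperone pair, was at 0.203, 1.58, 0.736, 1.03 and 9.66 RPM in cow and rose into the blastocyst 9.42-fold (95% interval 3.6 to 35.1); the ratio to the oocyte, 47.6 (95% interval 8.41 to 1895), rests on 1 oocyte read. PSMD9, a chaperone of the base, was at 30.4, 42.4, 44.2, 20.8 and 7.54 RPM in cow, lowest in the blastocyst, with a difference of -1.88 under the threshold. PSMG4 stayed between 0.225 and 2.05 RPM in cow. Pig PSMG3 was low throughout, at 0.888, 0.242, 0, 0.333 and 1.07 RPM. PSMD10, a chaperone also known as gankyrin, had one of the smallest ranges in pig at 17.8, 16.4, 13.6, 19.6 and 11.8 RPM, while cow PSMD10 was at 30.2, 32, 21.2, 17.7 and 41.7 RPM. The pig gene overlaps ATG4A on the opposite strand, which was at 595 RPM in the oocyte and 6.7 in the blastocyst.

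The PA28 activator is a ring of PSME1 and PSME2 proteins that opens the core without ubiquitin. PSME1 was at 2.43, 5.41, 3.68, 14.1 and 22.5 RPM in cow (chromosome 10, 20846749 to 20849410) and rose 9.24-fold (95% interval 5.22 to 18.1). In pig PSME1 was at 2.07, 14.5, 11.7, 23 and 124 RPM, rose 7.0-fold (95% interval 3.19 to 18.1) at the first step and 5.41-fold (95% interval 4.2 to 7.08) into the blastocyst, and was 60.03-fold higher (95% interval 28.9 to 150.1) over the series. Its pig blastocyst value was above all 4 others. Cow PSME2 (chromosome 10, 20838545 to 20841805) was at 0.406, 1.35, 2.21, 1.28 and 9.87 RPM and rose 7.7-fold (95% interval 3.22 to 24.1) into the blastocyst; its oocyte value is 2 reads. The pig PSME1 gene overlaps EMC9 on the opposite strand, which had 0 reads up to the 8-16 cell embryo and 7.78 RPM in the blastocyst. The cow genes overlapped no other gene.

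The nuclear activator PSME3 (PA28 gamma) was at 9.74, 18.7, 16.9, 19.2 and 29.8 RPM in cow, 3.06-fold higher (95% interval 2.27 to 4.22) in the blastocyst than in the oocyte, under the threshold. PSME4 (PA200), an activator known from the nucleus and from germ cells, was at 129, 127, 248, 181 and 299 RPM in cow and 125, 164, 156, 377 and 173 RPM in pig. It was highest in the cow blastocyst and in the pig morula, and its end differences were 1.20 and 0.47. The inhibitor PSMF1 (PI31) was at 7.1, 5.41, 3.5, 3.33 and 14.2 RPM in cow and 6.51, 7.25, 7.26, 17.7 and 17.4 RPM in pig, and neither end difference (0.91 and 1.29) passed the threshold. PSMC3IP matches the name pattern but encodes a factor of meiotic recombination and no subunit. It was at 5.88, 19.4, 9.2, 7.18 and 15 RPM in cow and 9.47, 10.6, 6.0, 4.0 and 5.63 RPM in pig, and its oocyte to 2-4 cell difference of 1.57 was the largest of that cow step.

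Set side by side, 35 symbols were compared from oocyte to blastocyst in both species. Of these, 26 (74.3%) had the same direction, 21 up and 5 down, where 68.5% of all 8566 shared symbols did. The members that rose in both were PSMB7, PSMB9, PSMC5 and PSME1, 4 of 35, where 11.6% of all shared symbols rose in both. PSMA8 and PSMD5 fell in both, 2 of 35, where 8.76% of all did. All 12 members whose difference passed 1 in both species had the same sign, as did 3610 of the 4616 shared symbols past 1 in both. By step, same-sign members were 12 of 33 from the oocyte to the 2-4 cell embryo, 21 of 33 to the 8-16 cell embryo, 20 of 33 to the morula and 23 of 35 to the blastocyst; all shared symbols gave 45%, 52.5%, 56.4% and 64.4%. Of the 4 symbols that rose in both species, PSMB9, PSMC5 and PSME1 overlap another gene in pig and PSMB7 does not.

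**Figure D5:**
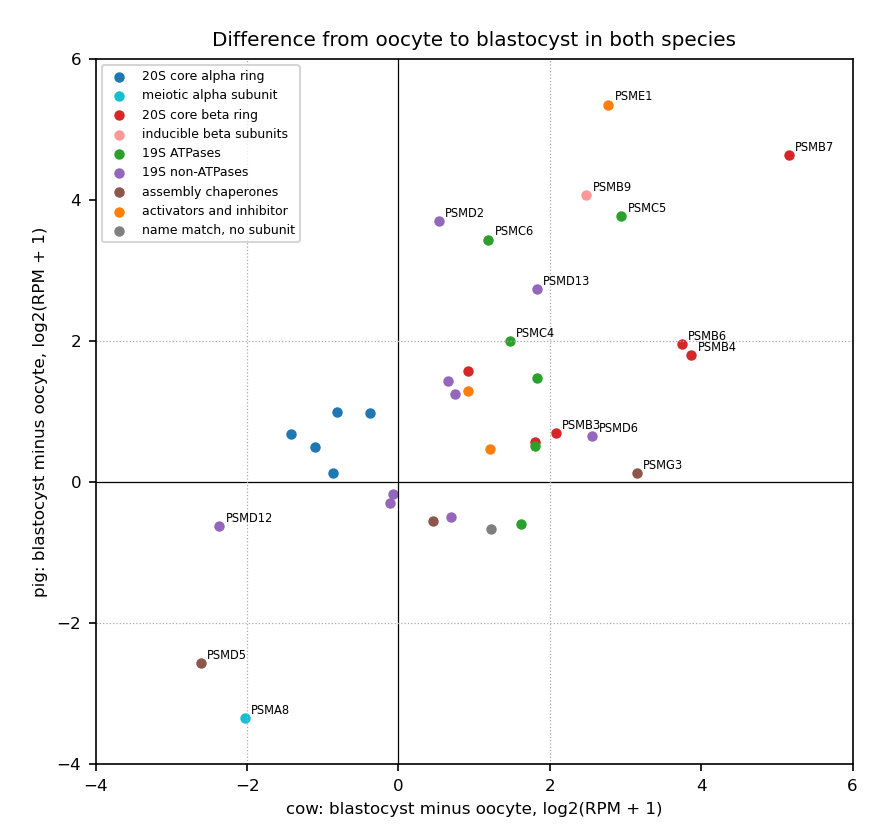
Difference of log2(RPM + 1) from oocyte to blastocyst for the shared members, cow on the horizontal and pig on the vertical axis, 1 point a gene, with lines at 0 and at 2 in each direction. PSMB7, PSMB9, PSMC5 and PSME1 lie past 2 on both axes and PSMA8 and PSMD5 past -2 on both.

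Of 31 genes that work with the proteasome without a PSM name, 28 were in the cow table and 23 in the pig table. From oocyte to blastocyst 7 of 28 rose and 2 fell in cow (median 0.83), where 22.5% and 18.8% of all genes did. In pig 6 of 21 compared rose and 3 fell, where 27.2% and 20% of all genes did, and the list's median was 0.57. PAAF1, which binds free 19S ATPases, rose in both, 10.4-fold (95% interval 5.9 to 20.4) in cow at 2.43, 3.38, 7.92, 17.7 and 25.4 RPM and 17.9-fold (95% interval 7.43 to 56.4) in pig at 1.48, 4.11, 4.42, 7.33 and 26.5 RPM. NGLY1, the glycanase that processes the transcription factor of proteasome genes NFE2L1, fell in both, 6.8-fold (95% interval 6.22 to 7.43) in cow at 339, 518, 143, 86.9 and 49.9 RPM and 24.7-fold (95% interval 19.6 to 31.5) in pig at 503, 659, 333, 124 and 20.4 RPM. POMP, the chaperone that completes the beta rings, was at 224, 162, 63.9, 75.9 and 62.8 RPM in cow, a difference of -1.82 under the threshold. In pig POMP was at 107, 19.3, 37.3, 301 and 466 RPM and rose 4.34-fold (95% interval 3.87 to 4.87). The POMP signs were thus opposite, and with 1 library a stage this difference between species was not tested.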

How the data were processed

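RNA sequencing of 10 libraries (2 species, 5 stages, 1 library each) was analysed. Per the labels' protocols, RNA was isolated with PicoPure, amplified with Ovation RNA-Seq V2 and given 8 PCR cycles. The submitters' processing notes name Trim Galore 0.6.4, HISAT2 2.1.0 and the builds UMD3.1 and Sscrofa11.1, without roles; the counter, annotation and use of strand are not given in the sources used here. Positions are printed as the deposited tables give them. The deposited values were log2 RPM, 1 table per species, scaled separately, so changes were computed within a species. At least 99.97% of values were whole multiples of 1 read (within 0.02 reads), with 0 reads written as 0.9 read, which gave reads and totals; the depth set the floor of 3 reads.

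With Python 3.11.15, pandas 2.3.3, numpy 2.4.6 and scipy 1.17.1, differences of log2(RPM + 1) were computed on all genes of a table, with 1 row per symbol, the one with the highest mean. Intervals on levels and shares are 95% Wilson, and on ratios exact conditional binomial (Clopper-Pearson). The calls were tested on simulated data, which cannot stand in for replicate libraries. The members, lists and rules were chosen with earlier results of these data known. Named were the proteolytic and inducible subunits, activators, inhibitor, assembly factors, PSMA8, PSMC3IP, the members with the largest differences between the ends (6 each way) and at each step (3), those with the smallest range (3), and partners past the threshold in both species; other members were named to fill their role group, after their values were seen. No genes were left out but those under 1 RPM in both libraries. No sequences are printed, and the interferon response list is not reported here. Alternatives tried were the pseudocount, minimum, threshold, scaling, repeated rows, thinning and genes that overlap another.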

Additional observations from a re-analysis of the deposited data

Results flagged for a closer look

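PSMD6 and 4 partner genes had differences of opposite sign in cow and pig, of at least 1 on the log2(RPM + 1) scale in each, at the same comparison. Such opposite signs were found for 146 of 7423, 505 of 8195, 764 of 8419, 723 of 8482 and 1006 of 8566 of all shared symbols compared at the 4 steps and between the ends, in that order. With 1 library a stage, none of these differences between the species was tested. PSMD6, a lid subunit, differed by 1.03 in cow and -2.69 in pig from the oocyte to the 2-4 cell embryo. POMP, a chaperone of core assembly, differed by -1.82 in cow and 2.11 in pig from the oocyte to the blastocyst. KIAA0368, the older symbol of the proteasome scaffold ECPAS, differed by 1.88 in cow and -1.01 in pig from the 8-16 cell embryo to the morula. UBB, a polyubiquitin gene, differed by -1.17 in cow and 3.30 in pig from the morula to the blastocyst. UBE3C, a ubiquitin ligase that binds the proteasome, differed by 1.01 in cow and -1.51 in pig at that same step.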

How the results depend on the processing

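No paired analysis was possible because each group had 1 library. For the same reason no library could be left out. Counts of members past the threshold moved by more than 1.5 times as follows. With a threshold of 1 in place of 2, the cow steps gave 8, 23, 11 and 13 members in order of stage, and the ends 24 higher and 6 lower. In pig that threshold gave 9, 7, 20 and 14 by step and 16 higher at the ends. Of all genes 12.8%, 64.7%, 44.4% and 58.6% passed it at the cow steps, and 29.7%, 27.4%, 59.1% and 62.1% at the pig steps. At the ends 38.6% of all cow genes were higher and 33.4% lower, and 42.8% of all pig genes were higher. With a pseudocount of 5 RPM, cow gave 0 from 8-16 cell to morula, 0 from morula to blastocyst and 7 higher at the ends, and pig gave 1 at the first step, 5 into the morula, 1 into the blastocyst and 1 lower at the ends. A pseudocount of 0.5 RPM gave 1 pig member from 2-4 to 8-16 cell. Leaving mitochondrial reads out of the total gave 1 cow member lower at the ends and 1 pig member from 2-4 to 8-16 cell. The single cow member into the morula (PSMB7) gave 0 under median scaling, quantile normalisation and thinning to the smallest read total. No difference named reversed while past the threshold. From oocyte to blastocyst, leaving out mitochondrial reads moved the median of all genes by 0.42 in cow and 0.10 in pig, and quantile normalisation by -0.19 and -0.41. Without mitochondrial reads the cow split was 18 higher to 1 lower, in place of 13 to 3, and the pig split 10 to 2 in place of 8 to 2. All genes then gave 27% higher and 15.4% lower in cow, and 28.1% and 18.6% in pig. The cow split into the 8-16 cell embryo was 4 to 3, and 6 to 1 with median scaling, where 17.8% of all genes rose and 7.27% fell. Among the pig members that overlap no other gene, 1 of 18 rose and 2 fell between the ends, and 5 of 17 rose into the morula. Medians of role groups were added after seeing the data; that of the cow assembly chaperones was -0.01 with a minimum of 5 RPM. The read totals limit values under about 1 RPM.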

Other observations

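Genes of ubiquitin itself and of substrate delivery, described as values only, did not share one course. RPS27A, which encodes ubiquitin fused to a ribosomal protein, was at 21.9, 16.9, 152, 159 and 188 RPM in cow. UBB was at 183, 183, 241, 284 and 125 RPM in cow and 64.8, 52.7, 46.4, 31.6 and 321 RPM in pig, where the blastocyst stood above the other 4 libraries. VCP, the ATPase that extracts ubiquitinated proteins from complexes, rose in pig, 21.5-fold (95% interval 14.7 to 32.9), at 7.99, 12.1, 55, 134 and 172 RPM, and had a cow difference of 1.84 at 24.3, 30.4, 57.2, 64.4 and 89.7 RPM.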
